A study of Saccharomyces cerevisiae with 6 samples.

Results

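Pyruvate decarboxylase turns pyruvate, the end product of glycolysis, into acetaldehyde and carbon dioxide, a step on the path from sugar to ethanol in yeast. In Saccharomyces cerevisiae it is encoded by PDC1, the main isozyme gene, by PDC5, whose expression is known to rise when PDC1 is missing or thiamine is scarce, and by PDC6, which is weakly expressed in standard media. Rap1, a sequence-specific general regulatory factor, is known to act at the promoters of ribosomal protein and glycolytic genes together with the activator Gcr1.

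The 3 genes were taken, out of 6002 nuclear protein-coding genes of the RefSeq table of assembly R64, with every Rap1 ChIP-seq peak that overlapped their coding span or the 1000 bp upstream of the coding start. They were chosen from these peak lists, so their peaks and the changes over time are given as a description, without a test. Rap1 was immunoprecipitated from crosslinked cells of strain UKY403, in which histone H4 can be shut off. The time series comprised UKY403 cells sampled 0, 2 and 4 h after a wash out of galactose medium into dextrose medium, with 2 biological replicates per time from separate time courses. All groups share the strain and the medium change, and the isogenic control strain UKY412 was not analysed here. Loss of histone H4 and growth on dextrose therefore cannot be told apart in these lists, nor can time in culture.

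Each time point had 1 peak list, which gives no measure of the spread between replicates. The lists held 1212, 2438 and 4073 peaks at 0, 2 and 4 h, called from 983197, 1483679 and 2327099 tags that remained once duplicates were dropped. A peak's summit height is the number of extended tags over its summit. Only 1 tag per position and strand counts, which limits the height to 292, a value reached in every list. Fold enrichment is the ratio of height to local background given by the authors' peak caller, and values of it are compared within a list only. Intervals on heights are 95% exact binomial (Clopper-Pearson) intervals of the tag positions filled out of 292, which treat positions as independent and cover counting error only.

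At 0 h the only peak of the 3 genes lay upstream of PDC1. At 2 and 4 h this peak was still listed, PDC1 and PDC5 each carried a strong peak near the middle of the coding span, and PDC6 had a weaker peak upstream and none in its coding span. The 3 genes thus had 1, 4 and 5 peaks in the lists of 0, 2 and 4 h, 10 in all. A peak overlapped the coding span of 0, 2 and 2 of the 3 genes at 0, 2 and 4 h, beside 10.1, 26.8 and 43.3% of all protein-coding genes. A peak overlapped the upstream 1000 bp of 1, 2 and 2 of them, beside 24.4, 32.6 and 44.5% of all genes. Among the 786 genes with a coding length of 1500 to 1900 bp, the range around the 1692 bp that PDC1, PDC5 and PDC6 share, 6.23, 29.1 and 49.9% had a coding peak.

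**Figure D1:**
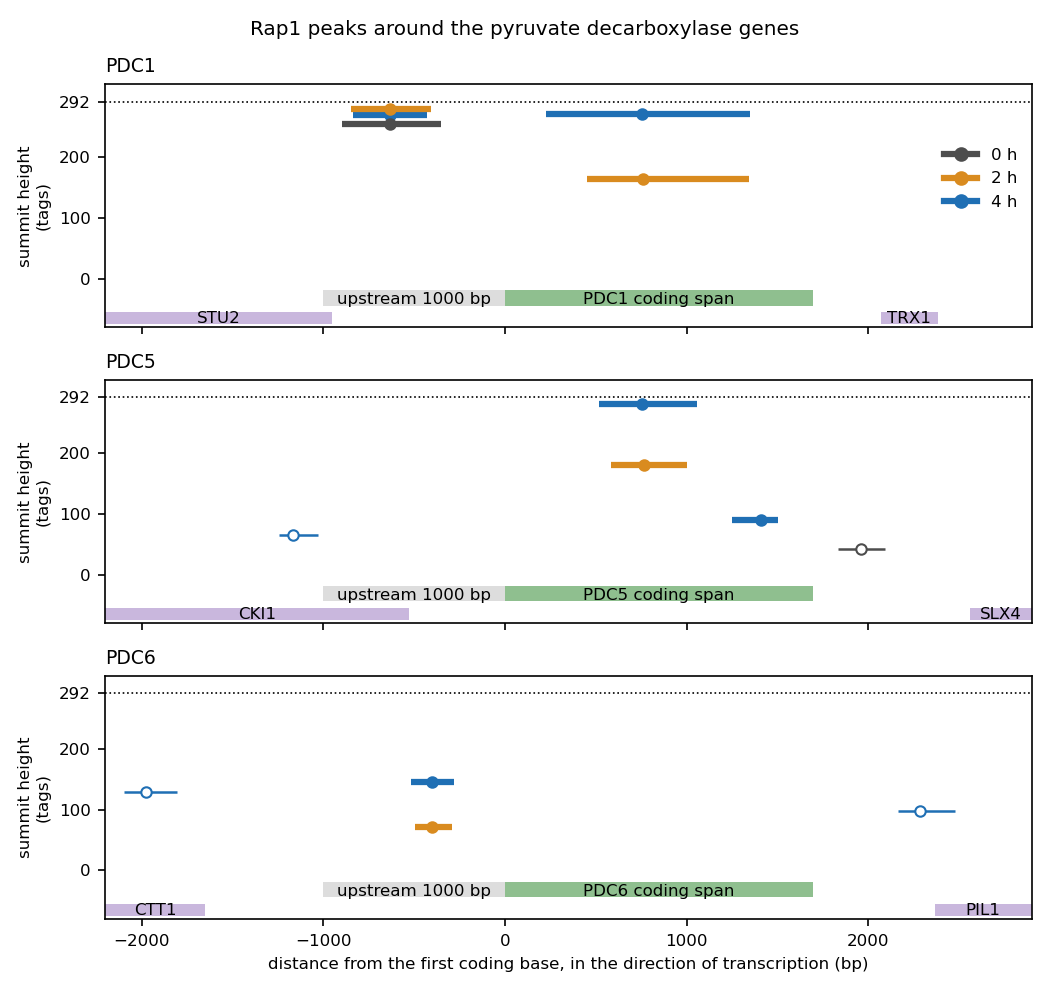
Peaks around PDC1, PDC5 and PDC6, with the distance from the first coding base in bp on the horizontal axis and the summit height in tags on the vertical axis. Horizontal lines are peak intervals and circles their summits at 0, 2 and 4 h, thin lines with open circles are peaks outside the coding span and the upstream 1000 bp, and the dotted line is the height limit of 292. The coding peaks of PDC1 and PDC5 stand at about the same distance from the coding start, while the PDC6 coding span holds none.

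PDC5 (YLR134W) lies on the forward strand of chromosome XII, 410723 to 412414. It follows CKI1, the choline kinase gene, on the same strand after 529 bp. No peak overlapped its coding span at 0 h, a peak of height 180 (interval 163 to 196) did at 2 h, and one of 281 (273 to 286) at 4 h. The peak spanned 411305 to 411726 (422 bp) at 2 h and 411238 to 411778 (541 bp) at 4 h, with the summit 762 and 754 bp after the coding start, or 45.0 and 44.6% of the way along the span. Its fold enrichment was 9.62 at 2 h and 9.25 at 4 h, with -log10 q of 111 and 165. The later summit stood 8 bp from the earlier one and the interval was 119 bp longer.

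The larger PDC5 height at 4 h went with a larger number of kept tags. Kept tags at 4 h were 1.57 times those at 2 h, and the height was 1.56 times as large. Divided by kept tags relative to 0 h, the height was 119 at 2 h and 119 at 4 h, a 4 h to 2 h ratio of 0.995. Divided by all tags instead, the height was 90.2 at 2 h and 111 at 4 h, so the change depends on the tag count used. The kept share of all tags was 40.4, 30.6 and 37.8% at 0, 2 and 4 h. The 4 h height was at 96.2% of the limit and the 2 h height at 61.6%, so the ratio is lowered by the limit.

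The 0 h list had the fewest tags, and the part of depth in the absence of a PDC5 peak from it was not tested. With the background of the later lists scaled to the 0 h depth (11.8 from 2 h, 12.5 from 4 h), a height of 26 or 27 corresponds to the weakest p of the 0 h list. A weak 0 h peak was listed just past the gene, at 412553 to 412812. Its summit was 266 bp past the coding end, with a height of 42 (30.9 to 55.3) and a fold enrichment of 3.36. It overlaps the 1000 bp upstream of SLX4, which encodes a scaffold of structure-specific endonucleases, and no peak of the later lists overlaps it.

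At 4 h PDC5 also had a second, weaker coding peak near its end, at 411973 to 412226. Its summit lay 1411 bp after the coding start, 83.4% of the way along, with a height of 90 (74.7 to 106) and a fold enrichment of 2.79. At 4 h 11.4% of all genes had 2 or more peaks overlapping the coding span. Divided by kept tags its height was 38.0, and a height of 28 corresponds to the weakest p of the 0 h list at its scaled background of 13.3. Upstream of PDC5 no peak was listed at any time within 1000 bp. The nearest was a weak 4 h peak inside CKI1, at 409479 to 409692, which ended 31 bp before the upstream window and had a height of 65 and a fold enrichment of 1.84.

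PDC1 (YLR044C) lies on the reverse strand of chromosome XII, 232390 to 234081. It is preceded by the 3' end of STU2, a microtubule regulator gene, at a distance of 955 bp on the same strand, and followed by the thioredoxin gene TRX1 376 bp further on. Its upstream peak was listed at all times and met neither the coding span nor the upstream 1000 bp of any other protein-coding gene. The peak spanned 234434 to 234976 at 0 h (543 bp), 234489 to 234930 at 2 h (442 bp) and 234509 to 234916 at 4 h (408 bp). The summit stayed within 3 bp, 631, 634 and 632 bp before the coding start.

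The heights of the PDC1 upstream peak were 255 (242 to 265), 280 (271 to 286) and 269 (258 to 277) at 0, 2 and 4 h, with fold enrichments of 13.6, 9.71 and 7.05. The 4 h interval overlapped both others, while those of 0 and 2 h did not overlap, and the heights amounted to 87.3, 95.9 and 92.1% of the limit. Divided by kept tags they were 255, 186 and 114, a decline that the limit imposes on any peak near it, so that it cannot be read as less Rap1. Among the 1007 regions listed at 0, 2 and 4 h, ranked by fold enrichment within each list, this region came at place 191, 263 and 290. The limit also bounds fold enrichment, so the change of place cannot be read as less Rap1 either. An upstream peak at all 3 times was found for 21.2% of all genes.

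In the PDC1 coding span no peak was listed at 0 h, one of height 164 (147 to 181) at 2 h and one of 271 (261 to 279) at 4 h. It spanned 232740 to 233628 (889 bp) at 2 h and 232734 to 233858 (1125 bp) at 4 h, and its fold enrichment was 5.73 and 7.27, with -log10 q of 67.4 and 134. The summit lay 757 and 752 bp after the coding start, 44.7 and 44.4% of the way along. Divided by kept tags, the height was 109 at 2 h and 114 at 4 h, with a ratio of 1.05, the 4 h height being at 92.8% of the limit. Divided by all tags it was 82.2 at 2 h and 107 at 4 h. A height of 36 at the scaled 2 h background, or 31 at that of 4 h, corresponds to the weakest p of the 0 h list. The 3' part of the peak also overlaps the 1000 bp upstream of TRX1.

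Within PDC1 the coding peak stood at 0.586 times the height of the upstream peak at 2 h and at 1.01 times at 4 h, when both were close to the limit. The PDC1 coding peak was also long. At 1125 bp it had the greatest length of the 1293 4 h peaks that overlapped a 2 h peak and no 0 h peak, whose median was 312 bp. The PDC5 peak with 541 bp was at place 111. The second 4 h coding peak of PDC5 is listed apart and is not part of that length. A coding peak at 2 and 4 h but not at 0 h was listed for 17.3% of all genes and for 23.0% of genes of similar coding length. Together with an upstream peak at all times, as at PDC1, it was listed for 4.10% of all genes. Many glycolysis genes had this combination too, as named below.

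**Figure D2:**
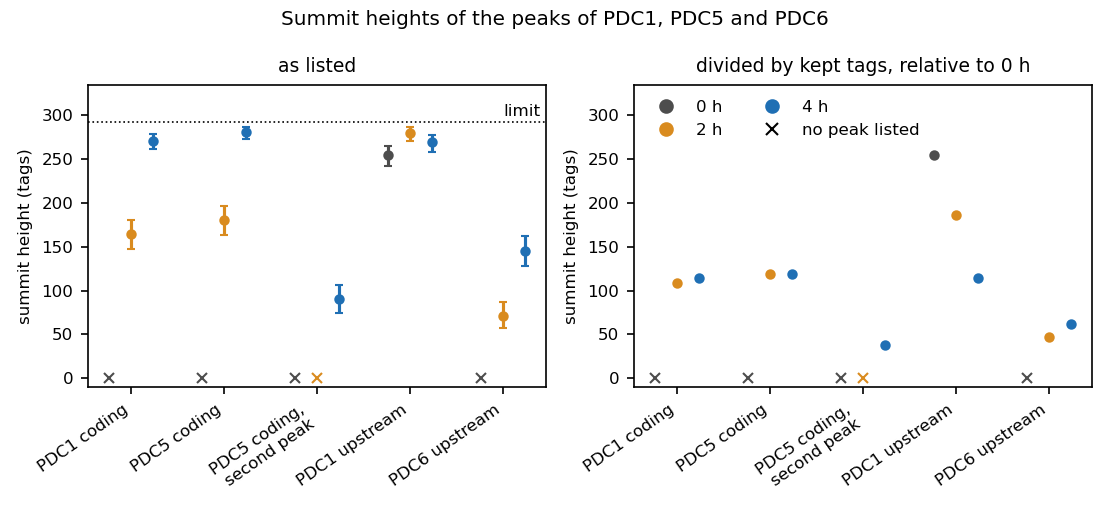
Summit heights in tags of each peak of PDC1, PDC5 and PDC6 at 0, 2 and 4 h, as listed in the left panel and divided by kept tags relative to 0 h in the right panel. Points are heights, bars in the left panel 95% exact binomial intervals of filled tag positions, crosses mark times with no listed peak (not a measured 0), and the dotted line is the limit of 292. The PDC1 and PDC5 coding peaks have heights of 164 and 180 at 2 h and 271 and 281 at 4 h, with overlapping intervals at each time.

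The coding summits of PDC5 and PDC1 stood at nearly the same position. Counted from the coding start, the PDC5 summit lay 5 bp beyond that of PDC1 at 2 h and 2 bp beyond it at 4 h. The intervals of their heights overlapped at each time, at 4 h close to the limit, the PDC5 height being 1.10 times that of PDC1 at 2 h and 1.04 times at 4 h. Of other genes of similar coding length that had a coding summit, 4.08% at 2 h (8 of 196) and 2.75% at 4 h (10 of 363) had one within 10 bp of the PDC5 distance, a window chosen after the positions were seen. PDC1 and PDC5 encode closely related proteins of equal coding length, and the tags were 35 bp long. The labels and headers do not state how tags that match several places were handled, and the part of shared tags in both peaks was not tested. The local background at 2 h was 17.8 at PDC5, equal to the genome-wide level, and 27.8 at PDC1. It was computed from height and fold enrichment, so it restates the lower PDC1 fold enrichment at a like height. Peaks were called without a control library, so this background comes from the Rap1 tags themselves. The part of nearby Rap1 peaks in it was not tested.

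PDC6 (YGR087C) lies on the reverse strand of chromosome VII, 651290 to 652981. No peak overlapped its coding span in any list, as for 55.8% of all genes. It had an upstream peak at 2 h, 653273 to 653478 (206 bp), and at 4 h, 653264 to 653500 (237 bp), with the summit 401 bp before the coding start in both. The height was 71 (57.0 to 86.6) at 2 h and 145 (128 to 162) at 4 h, and the fold enrichment 2.90 and 3.55. Divided by kept tags these heights were 47.0 and 61.3, a 4 h to 2 h ratio of 1.30. Heights of 32 and 33 correspond to the weakest p of the 0 h list at the scaled backgrounds. An upstream peak at 2 and 4 h but not at 0 h was listed for 10.2% of all genes.

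PDC6 is transcribed away from CTT1, the cytosolic catalase gene, with 1652 bp between the coding starts. The upstream summit was 1252 bp from the CTT1 start, so by the 1000 bp rule the peak was tied to PDC6 only, although it lies in an intergenic region that both genes share. CTT1 had a coding peak of its own at 4 h, at 654787 to 655076, with a height of 130 and a fold enrichment of 4.13. On the other side, PIL1, which encodes an eisosome protein, had a 4 h peak at its start, 650505 to 650817, of height 98 and fold enrichment 2.47.

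At 4 h the order of heights was PDC5 coding (281), PDC1 coding (271), PDC1 upstream (269), PDC6 upstream (145) and the second PDC5 coding peak (90). The highest 3 were at 96.2, 92.8 and 92.1% of the limit, where heights are held close together, so no order among them can be read. The intervals of the PDC6 upstream peak and the second PDC5 peak overlapped neither each other nor those of the highest 3. Among the 1293 4 h regions with a 2 h but no 0 h counterpart, ranked by fold enrichment, PDC5 was at place 4 at 2 h and 1 at 4 h, PDC1 at 89 and 49, and PDC6 at 654 and 794. The medians of these regions were 2.92 and 3.95, so by fold enrichment the PDC6 upstream peak was below the middle of the class and the PDC5 peak at its top. The limit on heights also bounds fold enrichment. At 4 h the local background was 29.5 at PDC5 and 36.4 at PDC1, so their places cannot be read as an order of Rap1 amount.

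**Figure D3:**
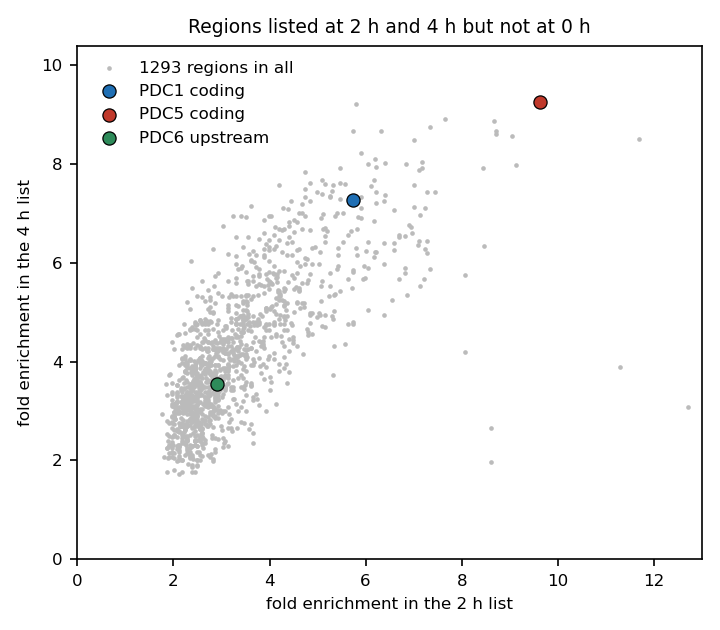
Fold enrichment in the 2 h list (horizontal) and in the 4 h list (vertical) of the 1293 peak regions listed at 2 and 4 h but not at 0 h. Grey points are all regions; the PDC5 coding peak is at 9.62 and 9.25, the PDC1 coding peak at 5.73 and 7.27, and the PDC6 upstream peak at 2.90 and 3.55, amid the bulk of the regions.

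The genes most like PDC5 and PDC1 in coding peaks were found from the within-list percentile of the highest fold enrichment with a summit in the coding span, summed as absolute differences over the 3 lists. Nearest to PDC5 were YGR210C (fold enrichment 9.05 at 2 h and 8.57 at 4 h, distance 3.74 percentile points), SHR5, encoding a subunit of a protein palmitoyltransferase (10.04 and 8.26, distance 3.81), and LAS1, encoding an endonuclease of ribosomal RNA processing (8.66 and 8.88, distance 4.28). Nearest to PDC1 were HXT2, encoding a hexose transporter (5.90 and 7.32, distance 1.10), PLB3, encoding a phospholipase B (5.47 and 7.29, distance 1.50), and RAM1, encoding a protein farnesyltransferase subunit (5.90 and 7.12, distance 1.78). None of these had a coding summit at 0 h. PDC6, with no coding summit, was given no such genes.

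Most glycolysis genes, like PDC1, had peaks both upstream and in the coding span at 4 h. Of 17 glycolysis genes, 3, 12 and 16 had a peak overlapping the coding span at 0, 2 and 4 h, and 17, 16 and 16 had one in the upstream 1000 bp. The background over all genes was 10.1, 26.8 and 43.3% for coding spans and 24.4, 32.6 and 44.5% upstream. By the rule of at least 1 bp, a single peak can count both as coding and as upstream. At 4 h the coding and upstream values were the same in GLK1 (fold enrichment 7.81, height 286) and in ENO2 (5.61, height 202), unlike in PDC1. The highest 4 h coding fold enrichments were in GLK1, the glucokinase gene (7.81), PFK1, encoding a phosphofructokinase subunit (7.62), and TDH3, encoding glyceraldehyde-3-phosphate dehydrogenase (6.78). The GLK1 peak had its summit 55 bp before the coding start and was listed at all times, with 12.0 at 0 h and 10.5 at 2 h. PFK1 had an upstream peak in each list (10.2, 6.68 and 4.65) and a coding peak at 2 and 4 h (5.47 and 7.62), as PDC1 had. The same combination, with no coding peak at 0 h, was listed for PFK2, TPI1, TDH1, PGK1, ENO1, ENO2, CDC19 and PYK2. It was not listed for the other glycolysis genes. ADH3 and ACS1, of the lists below, had it as well.

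Of the 5 alcohol dehydrogenase genes, which act on the acetaldehyde that pyruvate decarboxylase makes, 0, 3 and 4 had a coding peak and 2 an upstream peak at each time. ADH1, the main fermentative gene, had an upstream peak in each list (15.8, 11.0 and 8.34) and a weak coding peak at 4 h (2.31). ADH3, encoding the mitochondrial isozyme, had a coding fold enrichment of 5.47 at 4 h and ADH5 one of 4.01. Of the 7 genes that lead from acetaldehyde to acetyl-CoA, 1, 2 and 3 had a coding peak and 3, 4 and 4 an upstream peak. The highest coding values at 4 h were in the aldehyde dehydrogenase genes ALD4 (6.23) and ALD6 (2.11) and in ACS1 (4.04), encoding an acetyl-CoA synthetase.

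Of 10 genes for other uses of pyruvate, 1, 4 and 5 had a coding peak and 1, 0 and 3 an upstream peak. The pyruvate carboxylase genes PYC1 and PYC2 had 4 h coding fold enrichments of 6.18 and 5.31. The value of 9.37 at PDX1, encoding a component of the pyruvate dehydrogenase complex, belongs to a peak that reaches its 3' end and has its summit beyond it, with the values of the TDH3 upstream peak in every list. ARO10 and THI3, members of the same decarboxylase family as the PDC genes, had no coding or upstream peak in any list. Of 7 regulator genes, 2, 2 and 4 had a coding peak and 3, 3 and 4 an upstream peak. RAP1 itself led them with a peak whose summit was 126 bp before its coding start (8.64 at 4 h), followed by PDC2 (2.76), which encodes an activator of PDC1 and PDC5, and GCR1 (2.43).

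The positions of the PDC1 and PDC5 summits were set beside 9 pairs of related enzyme genes of these lists, a comparison chosen after the positions were seen. The part of shared tags was not tested in these pairs either. For each gene the 4 h coding peak with the highest fold enrichment was taken. Those of TDH3 and TDH2 had their summits 383 and 387 bp after the coding start, 4 bp apart. Unlike PDC1 and PDC5, TDH3 and TDH2 also had a coding peak at 0 h, with fold enrichments of 2.63 and 2.98. The 4 h summits of ENO2 and ENO1, the enolase genes, were at 498 and 491 bp, 7 bp apart, and those of PYC2 and PYC1 at 1787 and 1809 bp. In other pairs the summits were farther apart, with 35 bp between ADH2 and ADH1, 52 bp between PYK2 and CDC19, the pyruvate kinase genes, and 137 and 141 bp between TDH1 and the other two TDH genes. PFK2 and PFK1 differed by 292 bp and HXK2 and HXK1, the hexokinase genes, by 775 bp. PDC6, of the same coding length as PDC1 and PDC5, had no coding peak to set beside theirs.

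**Figure D4:**
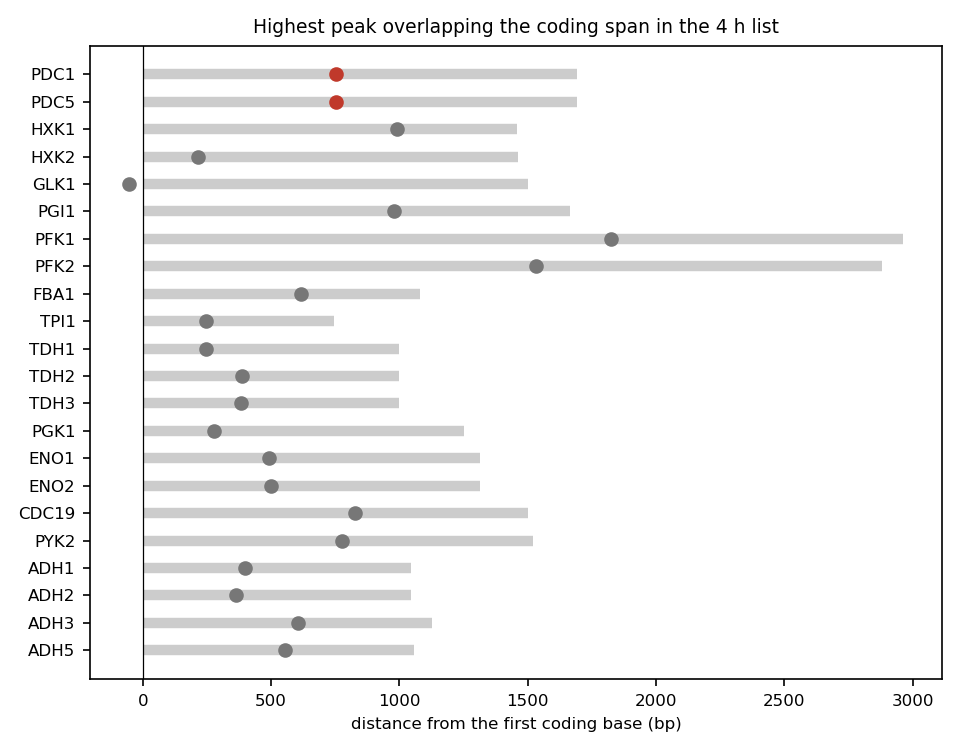
Position of the summit of the peak with the highest fold enrichment overlapping the coding span at 4 h, in bp from the first coding base, for PDC1 and PDC5 (red) and for the glycolysis and alcohol dehydrogenase genes with such a peak (grey points). Grey bars are the coding spans to scale. The summits of PDC1 and PDC5 stand at 752 and 754 bp, and those of TDH2 and TDH3 and of ENO1 and ENO2 are also within 10 bp of each other.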

How the data were processed

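Rap1 ChIP-seq of strain UKY403 was analysed from the deposited peak lists, 1 for each of 3 time points. The submitters' processing notes name Bowtie, SAMtools, MACS2 and sacCer3. Per the file headers, MACS2 2.0.10.20130712 called the peaks without a control library, with tags extended by 147 bp, a q cutoff of 0.05 and duplicates removed. Neither labels nor headers state whether the 1 alignment file per time point pools both replicates. The deposited signal at the summit (height) carries no depth scaling. The fold enrichment, a ratio to the local background, and the -log10 q are the authors' values.

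Local background was computed as (height + 1) / fold - 1; its lowest value in each list came within 7e-05 of the background expected from kept tags and the genome size in the header. Heights were given binomial intervals, chosen after seeing the data in place of the planned Poisson intervals, which passed the limit of 292. Peaks were tied to genes by an overlap of at least 1 bp, using the RefSeq gene table of R64, the assembly of sacCer3, with strand read from the systematic name. The table paired all 3 members and all 47 distinct pathway genes. Members and lists were chosen with earlier results of these data known. Named genes were the members, genes sharing a peak with them, the 3 genes most like each, and the 3 highest of each list by coding fold enrichment at 4 h; neighbouring genes and related pairs were added after their values were seen. Peak assignment was tested on simulated data. Python 3.11.15, pandas 2.3.3, NumPy 2.4.6, SciPy 1.17.1 and Matplotlib 3.10.9 were used. The planned motif search was not run, since no genome sequence was used here. No test across samples was made.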

Additional observations from a re-analysis of the deposited data

How the results depend on the processing

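PDC1 and PDC5 kept a coding peak at 2 and 4 h, and not at 0 h, with the summit inside the span, with -log10 q of at least 5 or 10, with a fold enrichment of at least 3, and with an overlap of at least 50% of the peak. These settings could not have changed that. The main coding peaks lie inside the spans, and their lowest values, at PDC1 at 2 h, were a -log10 q of 67.4 and a fold enrichment of 5.73. Stricter settings also cannot add a peak at 0 h. The number of PDC genes with an upstream peak was 1 at 2 h with a fold enrichment of at least 3, which removes PDC6. With an upstream window of 250 bp it was 0 at 0, 2 and 4 h, and with 500 bp it did not move.

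Divided by kept tags relative to 0 h, heights at 2 and 4 h were 109 and 114 for the PDC1 coding peak, 186 and 114 for PDC1 upstream, 119 and 119 for PDC5, 38.0 for its second peak, and 47.0 and 61.3 for PDC6 upstream. Divided by all tags they were 82.2 and 107, 140 and 106, 90.2 and 111, 35.6, and 35.6 and 57.3 in the same order.

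The share of all genes with a coding peak at 0, 2 and 4 h was 4.13, 21.0 and 37.1% with the summit inside the span, 3.85, 21.0 and 37.1% with 50% of the peak overlapping, 8.50, 19.1 and 33.4% with -log10 q of at least 10, 8.88, 17.8 and 26.6% with a fold enrichment of at least 3, and 6.23, 29.1 and 49.9% in genes of 1500 to 1900 bp. With -log10 q of at least 5 it was 25.1% at 2 h and 41.3% at 4 h. Of the 47 pathway genes, those with a coding peak at 0 h numbered 3 with the summit inside the span and 3 with the 50% overlap, instead of 7. At 2 h they numbered 15 with -log10 q of at least 10 and 14 with a fold enrichment of at least 3, instead of 23. Single lists moved in 19 further comparisons.

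No paired analysis was possible because each time point has 1 list that carries no replicate number. Leaving out a replicate was likewise not run. Heights near 292 limit any comparison of the strongest peaks, within a list or across times.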
